A study of Homo sapiens with 4 samples.

Results

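The 39 genes described here build the mitotic spindle and the kinetochore or drive the cell through mitosis, and they were taken by gene name from a list of 39 symbols. All 39 had counts, out of 31907 gene names with a count in any library. Their RNA was measured in 4 RNA-seq libraries of HGC-27, an established line of undifferentiated human gastric cancer cells. In 2 libraries the cells had received PBS, the vehicle, and in the other 2 they had received rIL-17B, recombinant interleukin 17B, at 200 ng/ml. All 4 were collected at 48 h, no genetic change was made in either group, and nothing in the labels says whether replicates came from separate cultures, so the p-values measure only the spread between these libraries. Interleukin 17B is a cytokine that signals through the receptor IL-17RB. The comparison asks whether cells given the cytokine carried more RNA of the genes used in mitosis.

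In mitosis, microtubules form the spindle, and each chromosome attaches to it through a kinetochore, a protein plate built on the centromere. The spindle checkpoint holds the cell until every kinetochore is attached. The anaphase-promoting complex is then switched on, the sister chromatids separate, and the cell divides in cytokinesis. Most of these genes are transcribed mainly in G2 and mitosis, so in a growing culture their summed RNA is commonly read as a sign of how many cells are cycling. In a bulk library, more cells in mitosis and more RNA of these genes per cell cannot be told apart.

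The promoters of such genes are known for a pair of short elements, the CHR element (letters TTTGAA or TTCGAA), which the DREAM and MMB complexes bind, and the CCAAT box (letters CCAAT), which the factor NF-Y binds. The following sequences are shown because their genes have different arrangements of these elements, and because CCNB1 and AUNIP were among the members with the smallest p. Each is the 150 bases before the transcription start in RefSeq on GRCh38.p14, written 5′ to 3′ along the gene, with CHR elements and CCAAT boxes on either strand in capitals.
PLK1, chr16:23678739-23678888, plus strand: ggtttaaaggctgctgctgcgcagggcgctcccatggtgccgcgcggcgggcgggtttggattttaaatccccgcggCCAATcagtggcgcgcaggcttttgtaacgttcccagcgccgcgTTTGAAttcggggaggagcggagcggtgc
CCNB2, chr15:59104996-59105145, plus strand: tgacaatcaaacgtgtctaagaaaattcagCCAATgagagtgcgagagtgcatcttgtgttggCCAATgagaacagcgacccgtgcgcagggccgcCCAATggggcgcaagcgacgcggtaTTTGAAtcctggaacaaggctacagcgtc
CDC20, chr1:43358831-43358980, plus strand: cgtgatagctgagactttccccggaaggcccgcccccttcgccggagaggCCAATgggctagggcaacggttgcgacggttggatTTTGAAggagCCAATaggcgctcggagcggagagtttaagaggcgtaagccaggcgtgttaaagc
KIF11, chr10:92592980-92593129, plus strand: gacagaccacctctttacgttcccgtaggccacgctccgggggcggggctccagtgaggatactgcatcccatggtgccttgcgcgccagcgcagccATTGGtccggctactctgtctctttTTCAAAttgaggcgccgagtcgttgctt
CCNB1, chr5:69167000-69167149, plus strand: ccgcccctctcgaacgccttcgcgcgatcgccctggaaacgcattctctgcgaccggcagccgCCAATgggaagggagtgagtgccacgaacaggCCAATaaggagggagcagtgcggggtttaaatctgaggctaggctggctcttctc
AUNIP, chr1:25859458-25859607, minus strand: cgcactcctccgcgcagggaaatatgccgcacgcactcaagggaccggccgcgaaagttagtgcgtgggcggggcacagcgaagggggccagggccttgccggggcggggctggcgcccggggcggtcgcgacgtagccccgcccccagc
PLK1 and CCNB2 had a CHR element 29 bases before the start, with 1 CCAAT box upstream of it in PLK1 and 3 in the printed stretch of CCNB2. In the printed stretch CDC20 had a CHR element between 2 CCAAT boxes, and KIF11 had both elements on the reverse strand (TTCAAA and ATTGG). CDC20 had another CHR element further upstream. In CCNB1 the stretch held 2 CCAAT boxes and no CHR element with the letters given above. Other spellings were not searched. In AUNIP the stretch held neither element with these letters.

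The libraries held between 12888029 and 17555879 counts. A value of 3 counts, the floor used here, corresponded to CPM values from 0.175 to 0.238. CPM is the count as a share of its library, scaled up, after TMM normalization, which assumes that most genes are alike between libraries. The rIL-17B libraries did not resemble each other. They were at least 2-fold apart for 2899 of 16361 genes tested, against 110 for the PBS libraries, and 342 genes with at least 100 counts in every other library had at most 3 in rIL-17B replicate 1, none of them among the 39. Summed over 8 mesenchymal markers, all with counts, CPM was 56569 and 54920.1 with PBS, 1089.8 in rIL-17B replicate 1 and 46886 in replicate 2. The sums over 9 epithelial markers were 1049, 1033, 2104 and 1300.2 in the same order. Most of each sum was KRT8, at 621, 624, 1361 and 805 CPM. Of 7 epithelial markers tested, 5 were higher and 1 lower in both rIL-17B libraries. KRT19 was at 3.05 and 3.41 CPM with PBS against 0.0639 and 3.38 CPM with rIL-17B, and CDH1 had at most 11 counts a library. The sums over 11 neural markers were 902, 1314, 55.8 and 648 in that order, with OLIG1, OLIG2, PTPRZ1 and NCAM1 at 0 in rIL-17B replicate 1. The 11 monocyte markers, summed because the library protocol speaks of monocytes, summed to between 8.05 and 15.4 CPM, and 7 of them were at 0 in rIL-17B replicate 1. Most of the sum in that library was CSF1R, which was at 4.03 and 5.70 CPM with PBS against 7.60 and 6.30 CPM with rIL-17B. The 10 markers of gastric epithelium summed to between 3.77 and 21.3 CPM, with no count for TFF1, PGC and SOX17. Outside rIL-17B replicate 1 most of that sum was GATA6, a transcription factor, which was at 15.7 and 11.6 CPM with PBS against 1.47 and 12.4 CPM with rIL-17B. Because replicate 1 stands apart, each rIL-17B library is also given on its own against both PBS libraries. The part of these marker differences in the results was not tested.

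All but 1 of the 39 members had more RNA in each rIL-17B library than in either PBS library. The exception was SPC25, a subunit of the kinetochore's NDC80 complex. This arrangement held for 28.5% of all genes tested (4669 of 16361), and the opposite one, both rIL-17B libraries below both PBS libraries, held for 30.4% of them and for 0 members. The 39 genes together took 0.342% and 0.323% of the counts with PBS, 0.672% in rIL-17B replicate 1 and 0.407% in replicate 2. Their summed CPM was 3536 and 3301 with PBS, which differ 1.07-fold, and 6276 and 4164 with rIL-17B, which is 1.84 and 1.22 times the PBS mean. The rIL-17B libraries were thus higher than the control spread by very unequal amounts.

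**Figure D1:**
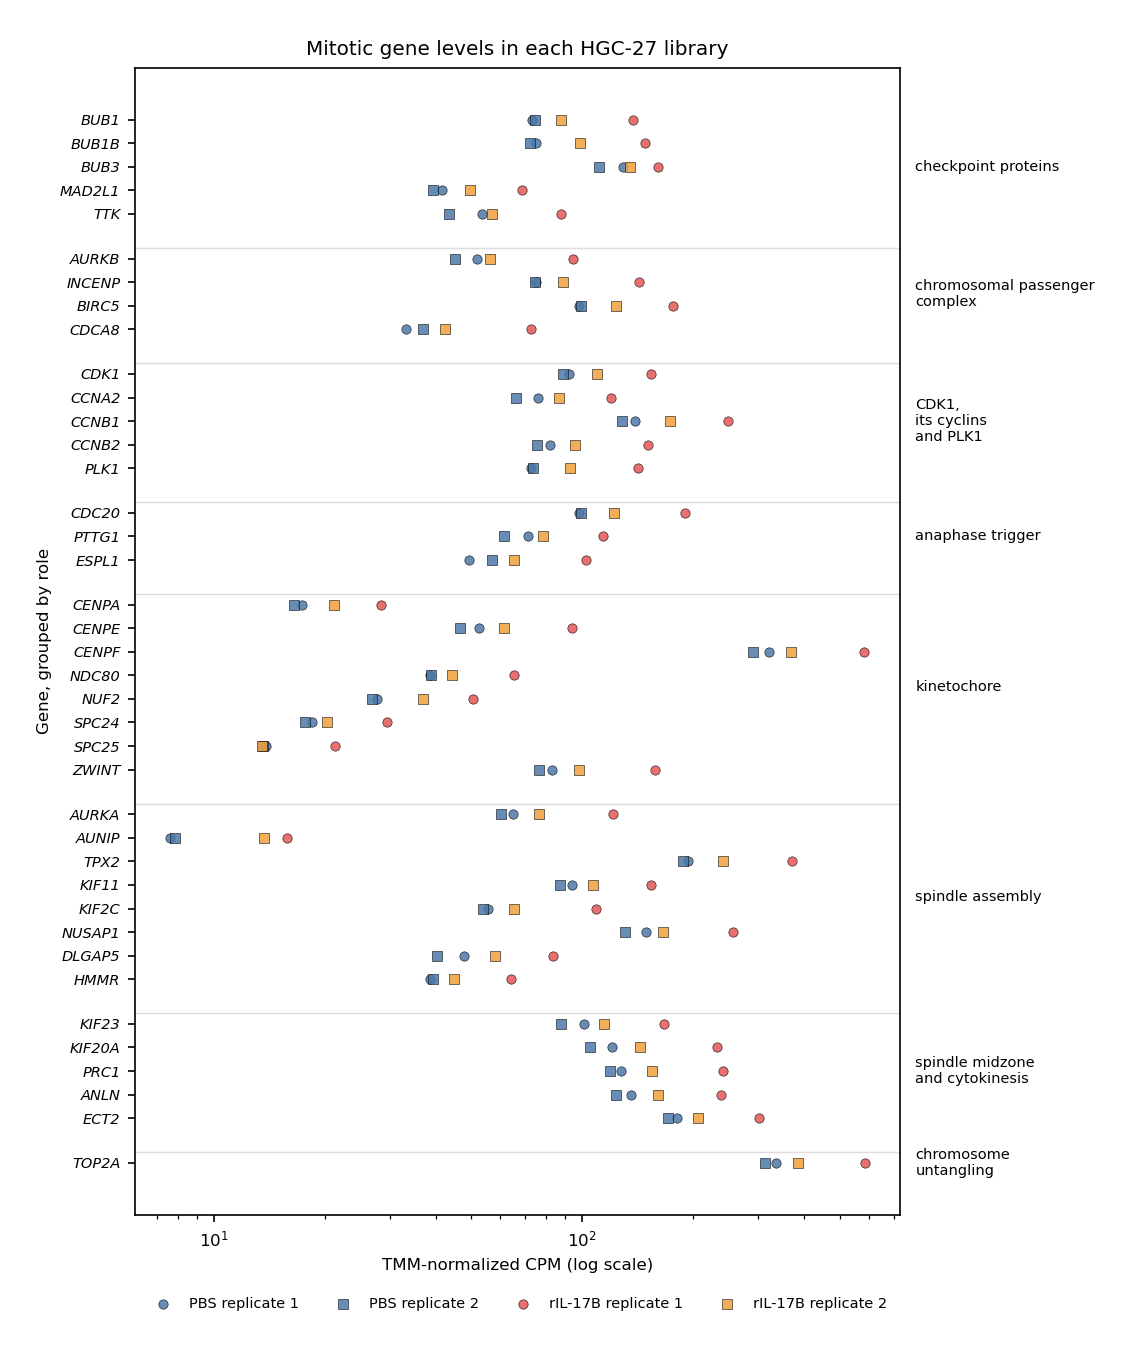
TMM-normalized CPM (log axis) of each of the 39 genes in each library, grouped by role; circles are replicate 1 and squares replicate 2, blue with PBS and red or orange with rIL-17B. The PBS points lie together at the left of each row, rIL-17B replicate 2 lies a little to their right, and rIL-17B replicate 1 lies farthest right in all 39 rows, with SPC25 the row in which replicate 2 is not above the PBS points.

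With the 4 libraries in 1 fit, edgeR's quasi-likelihood test called none of the members at an adjusted p below 0.05. It called 0% of all 16361 genes tested. The adjusted p of the members lay between 0.661 and 0.662. At an unadjusted p under 0.05 it listed 5 members, all higher with rIL-17B (BUB1B, CCNB1, NUF2, AUNIP and DLGAP5), where 0.905% of all genes were listed as higher. Over all genes it listed 226 in either direction. The members and genes listed by edgeR were 3 and 190 with upper-quartile normalization, and 3 and 161 with library totals. They were 14 and 462 with at least 10 counts in every library, and 33 and 879 with no filter on low counts. DESeq2 also called 0 genes after adjustment and listed 457 genes, 25 of them members, at an unadjusted p under 0.05. The median log2 fold change over the 39 was 0.63, from 0.29 for BUB3 to 0.93 for AUNIP, beside a median of -0.03 over all genes tested. The fit had 2 residual degrees of freedom, and an exact two-sided permutation test of 2 libraries against 2 cannot go below 0.33.

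Taken alone against both PBS libraries, rIL-17B replicate 1 had 39 of 39 members called higher by the same test, with 23.2% of genes called higher and 31.9% called lower in that comparison. The members' median log2 fold change was 0.89, from 0.41 for BUB3 to 1.05 for CDCA8, against -0.06 over all genes. Replicate 2 had 14 of 39 called higher, with 0.643% of genes called higher and 2.3% called lower, and 0 members called lower. Its median was 0.28 over the members, from -0.021 for SPC25 to 0.83 for AUNIP, against -0.01 over all genes. The 14 were BUB1B, BIRC5, CCNB1, PLK1, CDC20, CENPF, NUF2, ZWINT, AUNIP, TPX2, DLGAP5, KIF20A, PRC1 and ANLN. That number rested on the processing: it was 11 with upper-quartile normalization, 0 with scaling by library totals alone (smallest edgeR adjusted p 0.0691, with 32 members at an unadjusted p under 0.05) and 0 with DESeq2 (16 members at an unadjusted p under 0.05). Under those last 2 settings 0 of all genes were called in replicate 2. For replicate 1 the corresponding numbers were 39 with library totals and 38 with DESeq2. Each of these fits sets 1 library against the same 2 controls with 1 residual degree of freedom, assumes that the lone library varies like the controls, and compares libraries rather than treatments.

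**Figure D2:**
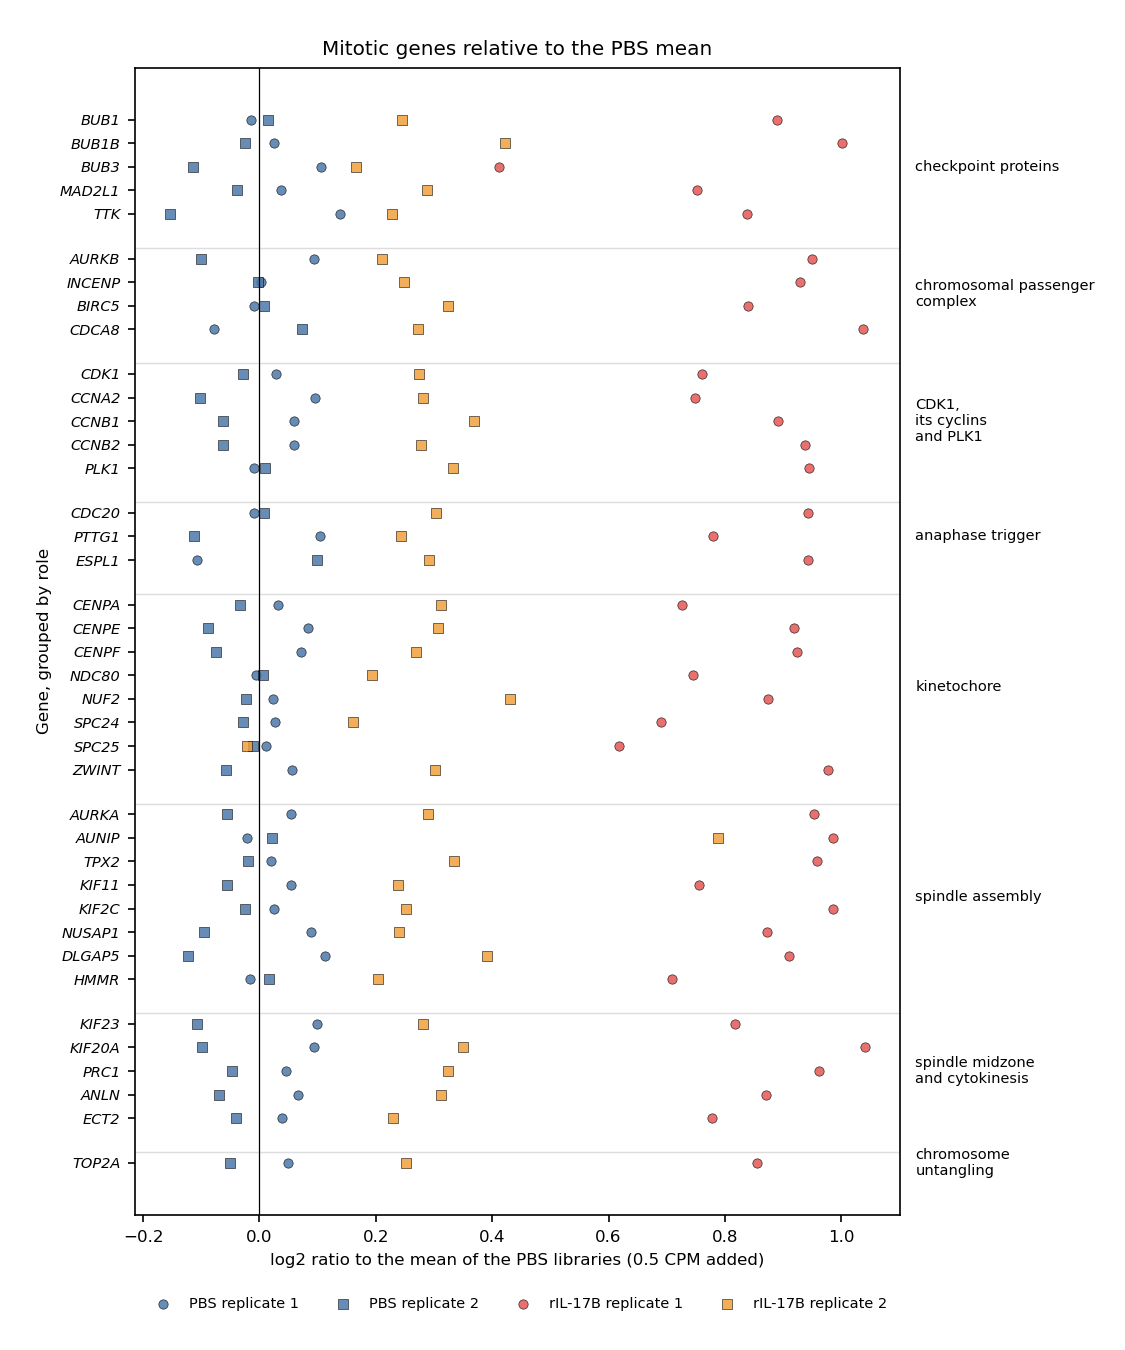
Log2 ratio of each library to the mean of the PBS libraries (0.5 CPM added to each value) for the 39 genes, grouped by role, with the same symbols as in the plot of levels. The PBS points scatter around 0 between -0.15 and 0.14, rIL-17B replicate 2 has a median of 0.28 and rIL-17B replicate 1 a median of 0.89, and AUNIP is the row in which replicate 2 comes closest to replicate 1.

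The spindle checkpoint proteins BUB1, BUB1B, BUB3, MAD2L1 and TTK were all higher in both rIL-17B libraries, with a median log2 fold change of 0.57. BUB1B (BUBR1, a part of the complex that inhibits the anaphase-promoting complex, chr15:40161023-40221136 on GRCh38) was at 74.9 and 72.3 CPM with PBS against 148 and 98.8 CPM with rIL-17B, replicates 1 and 2 in that order here and below. Both rIL-17B values lay well outside the pair of controls. Its log2 fold change over the 4 libraries was 0.74 ± 0.23 (SE, edgeR adjusted p = 0.661), and against PBS it was 1.01 ± 0.09 for replicate 1 and 0.42 ± 0.10 for replicate 2 (edgeR adjusted p 3.92e-28 and 0.00104). BUB3, the partner that brings BUB1 and BUB1B to the kinetochore (chr10:123154277-123170467), had the smallest difference of the 39, at 129 and 111 CPM with PBS against 160.2 and 135 CPM with rIL-17B (log2 fold change 0.29 ± 0.15 over the 4 libraries). The gap of replicate 2 from the nearer control was smaller than the gap between the controls. TTK, the kinase that starts checkpoint signalling, varied most between the controls, at 53.6 and 43.6 CPM, and was at 87.3 and 57.0 CPM with rIL-17B.

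The chromosomal passenger complex corrects faulty attachments and later acts in cytokinesis, and its members AURKB (the kinase), INCENP (the scaffold), BIRC5 (survivin) and CDCA8 (borealin) were all higher in both rIL-17B libraries, with a median log2 fold change of 0.63. BIRC5 (chr17:78214186-78225636) was at 97.9 and 99.1 CPM with PBS against 177 and 123 CPM with rIL-17B (log2 fold change 0.61 ± 0.21 over the 4 libraries), and was the member of this complex called in replicate 2 (log2 fold change 0.33 ± 0.09, edgeR adjusted p = 0.0174). CDCA8 (chr1:37692418-37709719) was at 33.2 and 36.9 CPM with PBS against 72.5 and 42.4 CPM with rIL-17B (log2 fold change 0.71 ± 0.31 over the 4 libraries). It had the largest fold over the PBS mean in replicate 1, 2.07, while its fold in replicate 2 was 1.21 (edgeR adjusted p = 0.213). AURKB and INCENP had folds of 1.94 and 1.91 in replicate 1 and of 1.16 and 1.19 in replicate 2.

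CDK1, its cyclins CCNA2, CCNB1 and CCNB2, and the kinase PLK1 start and carry forward mitosis. All 5 were higher in both rIL-17B libraries, with a median log2 fold change of 0.65. CCNB1, the cyclin whose destruction lets the cell leave mitosis (chr5:69167010-69178245), was at 139.5 and 128 CPM with PBS against 249 and 173 CPM with rIL-17B. Its log2 fold change was 0.66 ± 0.22 (edgeR adjusted p = 0.661), and it was 0.37 ± 0.09 in replicate 2 alone (edgeR adjusted p = 0.00221). PLK1 was at 72.8 and 73.7 CPM with PBS against 141 and 92.5 CPM with rIL-17B, and was also called in replicate 2 (edgeR adjusted p = 0.0228). CDK1 itself was at 92.4 and 88.8 CPM with PBS against 154 and 109.7 CPM with rIL-17B, and CCNA2 and CCNB2 had folds of 1.68 and 1.92 in replicate 1 and of 1.22 and 1.21 in replicate 2. None of these 3 was called in replicate 2.

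The anaphase trigger was represented by CDC20, the activator of the anaphase-promoting complex, PTTG1 (securin) and ESPL1 (separase, the protease that cuts cohesin). CDC20 (chr1:43358955-43363203) was at 98.3 and 99.5 CPM with PBS against 190.5 and 122 CPM with rIL-17B, giving a log2 fold change of 0.66 ± 0.25 (edgeR adjusted p = 0.661), and it was called in replicate 2 (0.31 ± 0.09, edgeR adjusted p = 0.0312). PTTG1 was at 71.2 and 61.2 CPM with PBS against 114 and 78.5 CPM with rIL-17B, and ESPL1 at 49.4 and 57.0 CPM and at 103 and 65.2 CPM. The inhibitor and its protease were therefore both higher in both rIL-17B libraries. The controls themselves differed in opposite directions, PTTG1 being higher in PBS replicate 1 and ESPL1 in PBS replicate 2.

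The kinetochore group held 8 members, from the centromeric histone CENPA through the 4 subunits of the microtubule-binding NDC80 complex (NDC80, NUF2, SPC24 and SPC25) and the adaptor ZWINT to CENPE, a kinesin, and CENPF, a large coiled-coil protein. NUF2 (chr1:163266576-163355764) was at 27.7 and 26.8 CPM with PBS against 50.4 and 37.0 CPM with rIL-17B, giving a log2 fold change of 0.68 ± 0.20 over the 4 libraries and of 0.44 ± 0.12 in replicate 2 alone (edgeR adjusted p 0.661 and 0.0210). SPC25 (chr2:168834132-168913371) was at 13.8 and 13.6 CPM with PBS against 21.3 and 13.5 CPM with rIL-17B, so that its log2 fold change was 0.34 ± 0.28 over the 4 libraries, 0.64 ± 0.16 in replicate 1 (edgeR adjusted p = 0.000226) and -0.021 ± 0.17 in replicate 2. These 2 partners in the same 4-part complex thus had unlike values in replicate 2, a difference that was not tested. SPC24 (chr19:11131520-11155808) lay between them, at 18.4 and 17.7 CPM with PBS against 29.5 and 20.3 CPM with rIL-17B, with a log2 fold change of 0.46 ± 0.24 over the 4 libraries and 0.16 ± 0.15 in replicate 2 (edgeR adjusted p = 0.715), and NDC80 was at 38.6 and 38.9 CPM and at 65.2 and 44.4 CPM. Relative to NDC80, per kilobase, NUF2 was at 0.770 and 0.739 with PBS and 0.827 and 0.892 with rIL-17B, whereas SPC25 was at 0.701 and 0.685 and at 0.640 and 0.596. The ratio of SPC24 to NDC80 stayed between 0.574 and 0.606 in the 4 libraries. SPC25 and SPC24 rested on between 172 and 462 counts a library, among the lowest of the members. ZWINT (chr10:56357228-56361275), which links the inner plate to the checkpoint machinery, was at 82.8 and 76.5 CPM with PBS against 157 and 98.3 CPM with rIL-17B (log2 fold change 0.68 ± 0.27 over the 4 libraries), and was called in replicate 2 just below the threshold (edgeR adjusted p = 0.0488). CENPF was called as well (edgeR adjusted p = 0.0417), at 322 and 291 CPM with PBS against 582 and 369 CPM with rIL-17B. CENPA and CENPE had folds of 1.67 and 1.90 in replicate 1 and of 1.25 and 1.24 in replicate 2, and neither was called there.

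Spindle assembly was represented by the kinase AURKA with its activator TPX2 and its binding partner AUNIP, the kinesins KIF11 (Eg5, which pushes the poles apart) and KIF2C (MCAK, which shortens microtubules), and the microtubule-binding proteins NUSAP1, DLGAP5 (HURP) and HMMR (RHAMM). All 8 were higher in both rIL-17B libraries, with a median log2 fold change of 0.67. AUNIP (chr1:25831913-25859458, minus strand), a protein of the centrosome and spindle poles, was the lowest of the 39 in level and had the smallest p, 0.0109 before adjustment. It was at 7.60 and 7.84 CPM with PBS against 15.8 and 13.7 CPM with rIL-17B, from 117, 99, 247 and 235 counts. Here the rIL-17B libraries nearly coincided, 1.15-fold apart, where the median member was 1.52-fold apart. Its log2 fold change was 0.93 ± 0.19 over the 4 libraries (edgeR adjusted p = 0.661), 1.03 ± 0.19 in replicate 1 and 0.83 ± 0.19 in replicate 2 (edgeR adjusted p 2.62e-07 and 0.00212). Exons of AUNIP overlap those of MTFR1L on the other strand, which was at 27.3 and 26.1 CPM with PBS against 19.4 and 23.0 CPM with rIL-17B. They also overlap those of AL020996.3 on the same strand as AUNIP. The part of either overlap in the counts was not tested. How the counting treated strand is not given in the sources used here.

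TPX2 (chr20:31739271-31801805) was at 194 and 188 CPM with PBS against 372 and 241 CPM with rIL-17B, with a log2 fold change of 0.68 ± 0.25 over the 4 libraries and 0.34 ± 0.09 in replicate 2 (edgeR adjusted p 0.661 and 0.00622). AURKA was at 64.8 and 60.0 CPM with PBS against 121 and 76.4 CPM with rIL-17B. The ratio of the activator to its kinase, per kilobase, lay between 2.43 and 2.56 in the 4 libraries, while the ratio of AUNIP to AURKA was 0.143 and 0.159 with PBS and 0.158 and 0.218 with rIL-17B. DLGAP5, which stabilizes microtubules near chromosomes (chr14:55148112-55191678), was at 47.7 and 40.4 CPM with PBS against 83.2 and 57.9 CPM with rIL-17B, giving a log2 fold change of 0.68 ± 0.23 (edgeR adjusted p = 0.661), and was called in replicate 2 (0.39 ± 0.11, edgeR adjusted p = 0.0162). KIF11, KIF2C, NUSAP1 and HMMR were not called in replicate 2, where their folds were between 1.15 and 1.19, and their folds in replicate 1 were between 1.64 and 1.99.

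The midzone and cytokinesis genes organize the spindle between the separating chromosomes and cut the cell apart. KIF23 and KIF20A (kinesins of the midzone), PRC1 (which bundles its microtubules), ANLN (anillin, of the contractile ring) and ECT2 (which activates RhoA) were all higher in both rIL-17B libraries. KIF20A (chr5:138178719-138187715) was at 120.2 and 105 CPM with PBS against 232 and 144 CPM with rIL-17B, giving a log2 fold change of 0.74 ± 0.28 (edgeR adjusted p = 0.661). In the single-library comparisons it reached 1.04 ± 0.08 and 0.35 ± 0.09 (edgeR adjusted p 1.39e-33 and 0.00554). ANLN (chr7:36389806-36453791) was at 136 and 124 CPM with PBS against 237 and 161 CPM with rIL-17B (log2 fold change 0.62 ± 0.23 over the 4 libraries), and PRC1 at 127 and 119 CPM and at 241 and 155 CPM. Both were called in replicate 2 (edgeR adjusted p 0.0187 and 0.0124). ECT2 (chr3:172750682-172821474) was at 180.4 and 171 CPM with PBS against 301 and 206 CPM with rIL-17B (log2 fold change 0.53 ± 0.23 over the 4 libraries), and KIF23 had folds of 1.77 and 1.22. Neither was called in replicate 2. TOP2A, the topoisomerase that untangles sister chromatids (chr17:40388516-40417950), had the highest count of the 39 and was at 335 and 313 CPM with PBS against 586 and 386 CPM with rIL-17B, with a log2 fold change of 0.59 ± 0.25 over the 4 libraries (edgeR adjusted p = 0.661) and 0.25 ± 0.08 in replicate 2 (edgeR adjusted p = 0.0655).

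Across roles the median log2 fold changes lay close together, from 0.57 for the checkpoint proteins to 0.67 for spindle assembly, and the single gene TOP2A was at 0.59. Every role had at least 1 member called in replicate 2 except the last. Between the rIL-17B libraries all 39 members were higher in replicate 1, by 1.15-fold for AUNIP to 1.71-fold for CDCA8. Between the PBS libraries the fold ran from 0.866 for ESPL1 to 1.23 for TTK with a median of 1.06, and 30 of 39 members were higher in replicate 1. In replicate 2 of rIL-17B 38 members were at least 1.1-fold above the PBS mean. The shares of all genes tested with such differences between libraries were not worked out. These counts therefore do not show whether the members differ from other genes. Among the members, 15 had exons that overlap another annotated gene and 6 (BUB1, BUB3, CCNB2, CDC20, AURKA and DLGAP5) have a pseudogene carrying their name, so that their counts are less certain. PTTG2 and PTTG3P, close copies of PTTG1, had at most 1 count in any library.

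Levels of different genes were compared per length, as CPM per kilobase of the union of annotated exons, with PBS. TPX2 (53.7 and 52.2), CCNB1 (54.5 and 50.1), TOP2A (52.1 and 48.6), NUSAP1 (51.7 and 45.5) and CDC20 (48.2 and 48.8) formed the top of the order, and their neighbours overlapped between the PBS libraries. The next, ZWINT, was clearly lower at 34.8 and 32.2. The median member was at 16.7. At the low end ESPL1 was at 5.55 and 6.41, CENPE at 5.56 and 4.93 and AUNIP at 3.16 and 3.26. Of the 38 neighbouring pairs in the order, 23 overlapped between the PBS libraries. The order depended on the length used: per kilobase of the longest annotated transcript PTTG1 came first at 61.9 in place of 32.9, and TPX2 moved from rank 1 to rank 6 at 53.0.

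**Figure D3:**
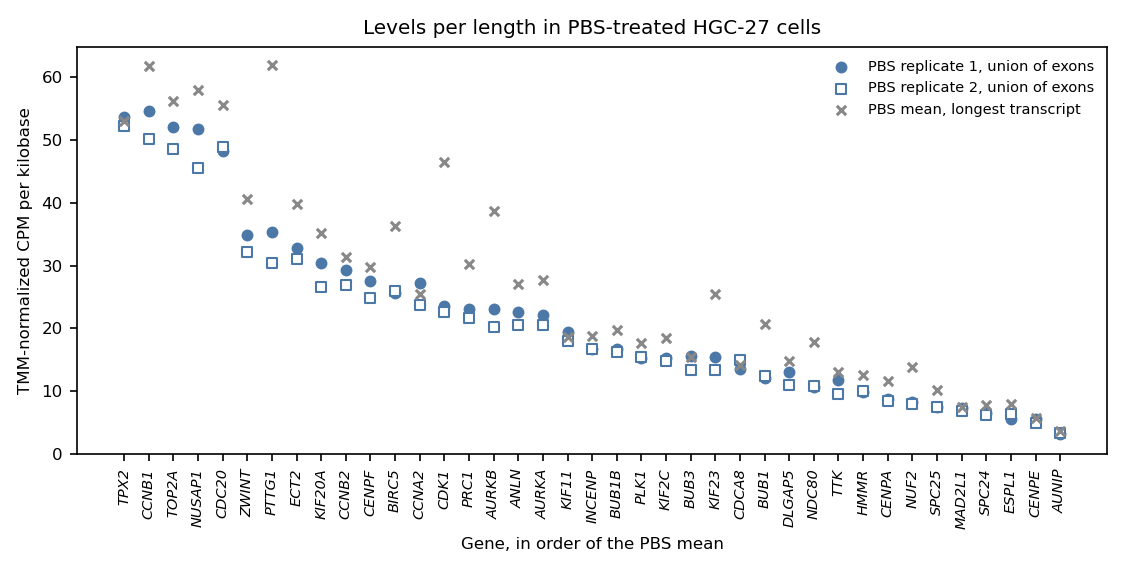
TMM-normalized CPM per kilobase of each gene in the 2 PBS libraries (filled circles and open squares, union of annotated exons), in order of their mean; grey crosses give the PBS mean per kilobase of the longest annotated transcript. The first 5 genes sit near 50, ZWINT starts a lower step near 33 and AUNIP ends the row at 3.21, and the crosses lie above the circles for most genes, most of all for PTTG1 and CDK1.

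Genes that work beside the members were taken as 12 lists of 176 genes. Those closest in function were also higher, to different extents. All 8 other mitotic kinesins were higher in both rIL-17B libraries, with a median log2 fold change of 0.62, and all 8 were called higher in replicate 1 and 2 of them in replicate 2. KIF22, which moves chromosome arms, was at 62.5 and 60.1 CPM with PBS against 118 and 76.8 CPM with rIL-17B. KIF15, a spindle kinesin, was at 22.3 and 21.0 CPM and at 38.1 and 28.3 CPM. Of 18 cohesin and condensin genes 17 were higher in both and 1 was lower, with a median of 0.39, and 16 were called higher in replicate 1. NCAPG, a condensin subunit, was at 68.9 and 64.5 CPM with PBS against 119.7 and 82.3 CPM with rIL-17B, and STAG1, a cohesin subunit, had a smaller log2 fold change of 0.33 ± 0.11.

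The rest of the kinetochore had lower medians than the members. In the inner kinetochore complex CCAN 11 of 15 genes tested were higher in both rIL-17B libraries, with a median log2 fold change of 0.43, and 13 were called higher in replicate 1 and 0 in replicate 2. CENPM, with the smallest p of the list, was at 20.5 and 19.1 CPM with PBS against 41.4 and 26.8 CPM with rIL-17B (log2 fold change 0.78 ± 0.26), and CENPX, the next by p, had 0.53 ± 0.19. Among 15 further genes of the outer kinetochore the median was 0.38, with 12 higher in both and 13 called in replicate 1. KNL1, the platform that BUB1 and BUB3 dock to, was at 48.8 and 48.2 CPM with PBS against 86.6 and 59.6 CPM with rIL-17B, and ZWILCH, of the complex that recruits dynein, had a log2 fold change of 0.48 ± 0.17. The 18 genes of the anaphase-promoting complex and its partners had a median of 0.23. Its E2 enzyme UBE2C was at 51.9 and 48.0 CPM with PBS against 99.0 and 64.5 CPM with rIL-17B and was the 1 gene of the list called in replicate 2 (log2 fold change 0.37, edgeR adjusted p = 0.0226), while the subunit CDC23, whose exons overlap those of KIF20A on the other strand, had a log2 fold change of 0.25 ± 0.11.

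The lists for centrioles and microtubule nucleation had low medians, 0.17 for 10 centriole duplication genes and 0.23 for 14 genes of gamma-tubulin and augmin. Within them PLK4, the kinase that starts centriole duplication, had a log2 fold change of 0.67 ± 0.23, STIL, its partner, of 0.51 ± 0.20, and the augmin subunits HAUS6 and HAUS5 of 0.40 ± 0.16 and 0.36 ± 0.16. The 14 regulators that transcribe or repress G2 and mitotic genes had a median of 0.24. FOXM1, an activator of such genes, was at 122 and 131 CPM with PBS against 252 and 149 CPM with rIL-17B, and LIN9, of the MMB complex, had a log2 fold change of 0.44 ± 0.17. A list of 13 genes around the CDK1 switch held enzymes and other proteins. Its median was 0.48 and 12 were higher in both, among them MASTL (0.46 ± 0.16) and GTSE1 (0.57 ± 0.20).

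Genes of S phase had medians near those of the members. All 25 replication licensing and fork genes were higher in both rIL-17B libraries, with median log2 fold changes of 0.59 in the joint fit, 0.85 in replicate 1 and 0.25 in replicate 2, where 25 and 4 of them were called higher. GINS1, a subunit of the replicative helicase, was at 12.5 and 12.8 CPM with PBS against 21.9 and 20.3 CPM with rIL-17B (log2 fold change 0.74 ± 0.15, edgeR adjusted p = 0.661, and 0.69 in replicate 2, edgeR adjusted p = 0.00247). CDT1, a licensing factor, was at 52.1 and 54.4 CPM and at 86.4 and 64.5 CPM. Of 11 further proliferation markers 10 were higher in both, with a median of 0.59, and the 2 with the smallest p were the kinases PBK (0.62 ± 0.23) and MELK (0.58 ± 0.22). MKI67, the gene of the Ki-67 antigen, named here after its values were seen, was at 233 and 224 CPM with PBS against 464 and 264 CPM with rIL-17B.

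G1 cyclins and CDK inhibitors were mixed. Of 14 genes 5 were higher and 4 lower in both rIL-17B libraries, and their median log2 fold change was -0.04. CDK2 and CDK4, kinases of the G1 to S step, had log2 fold changes of 0.56 ± 0.19 and 0.29 ± 0.14. The others named here were chosen after their values were seen. CDKN1A (p21), an inhibitor of cyclin-dependent kinases, was at 359 and 352 CPM with PBS, 63.8 CPM in rIL-17B replicate 1 and 309 CPM in replicate 2, and was called lower in replicate 1 (log2 fold change -2.48). CCND2, a G1 cyclin, was at 51.6 and 68.8 CPM with PBS against 0.575 and 39.6 CPM with rIL-17B, and was called lower in both comparisons (-6.68 and -0.60). CCND1 was at 184 and 161 CPM with PBS, 83.3 CPM in rIL-17B replicate 1 and 159.9 CPM in replicate 2, and was called lower in replicate 1 (-1.05). CCND3, the other D-type cyclin of the list, went the other way, at 170 and 164 CPM with PBS against 257 and 186 CPM with rIL-17B. Over the 4 libraries 0 genes of the 12 lists passed the adjusted threshold. The lists were compared by counts and medians alone, without a test of one list against another.

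**Figure D4:**
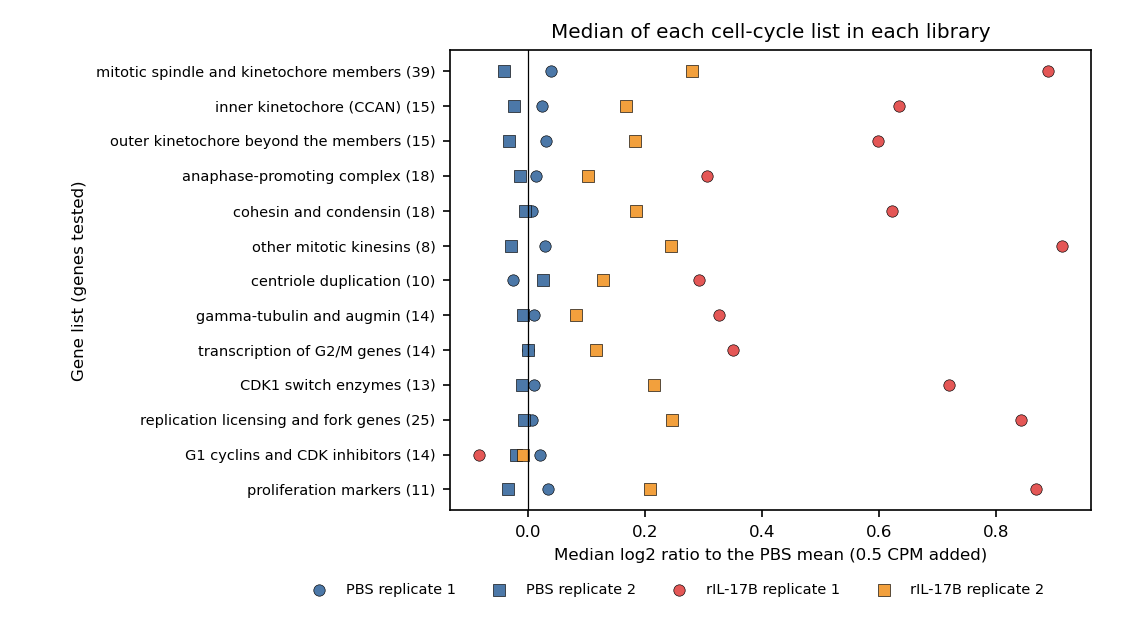
Median log2 ratio to the PBS mean (0.5 CPM added) in each library for the 39 members and the 12 neighbouring lists, with the number of genes tested in parentheses. In rIL-17B replicate 1 the members, the other mitotic kinesins, the replication genes and the proliferation markers sit between 0.84 and 0.91, in replicate 2 the same 4 lists sit between 0.21 and 0.28, and the G1 list sits near 0 in every library.

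The promoter elements shown at the start were then searched in all promoter windows, from 250 bases before to 50 bases after each RefSeq start. A promoter was found for 34 of the 39 members, and those of BUB3, TTK, BIRC5, AURKA and TPX2 were not analysed here. A CHR element on either strand lay in 25 of the 34 windows (73.5%), against 11.4% of 11138 windows of tested genes and 16.4% of all 35116 windows. It lay within 50 bases of the start in 21 members (61.8%), against 3.23% of tested genes. A CCAAT box lay in 27 (79.4%, against 36.3%), and 18 members had 2 or more (52.9%, against 13.2%). Both elements were present in 21 members (61.8%), against 4.83% of tested genes and 6.38% of all windows. Both elements were thus found in a larger share of the mitotic genes than of promoters at large, which is given as a description without a test. An E2F site (written as TTCGCGC, or as TTGGCGC, or as TTCCCGC) lay in 9 members (26.5%, against 17.2%). Matches of different elements overlapped in 2 members. Counted on either strand, HMMR had the most CCAAT matches, 5, and TOP2A, CENPF and CCNB2 had 4 each. The HMMR matches 69 and 66 bases before the start overlap on opposite strands, so they are not separate boxes. The same holds for the PTTG1 matches at 51 and 48 bases. Only AUNIP, CENPE and KIF2C among the 34 had neither a CHR element nor a CCAAT box with these letters.

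The medians of members with and without a CHR element, or with and without a CCAAT box, were within 0.1 of each other in every comparison, without a test. Members counted as without an element lacked the letters searched. Other spellings were not searched, so the comparison cannot decide whether the elements mattered. Members with a CHR element had, over the 4 libraries, a median of 0.62 on the log2 scale (25 genes), and members without it had 0.65 (9 genes). In rIL-17B replicate 1 these medians were 0.88 and 0.92, and in replicate 2 both were 0.28. For the CCAAT box the medians were 0.61 with it (27 genes) and 0.67 without (7 genes) over the 4 libraries, 0.89 and 0.92 in replicate 1, and 0.28 and 0.31 in replicate 2. Among tested genes that are not members, the 517 with both a CHR element and a CCAAT box had medians of 0.04 over the 4 libraries, 0.06 in replicate 1 and 0.02 in replicate 2, close to the medians of all 11104 such genes with a window (-0.02, -0.04 and -0.00054). AUNIP, with neither element, had the largest log2 fold change of the 39 over the 4 libraries, and SPC25, with 2 of each, had nearly the smallest. Both were among the members with the lowest counts. CENPE and KIF2C, the others with neither element, were at 0.65 and 0.67, near the member median of 0.63. A match of letters is a description of the window and does not show that a factor binds there.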

How the data were processed

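RNA of 4 HGC-27 libraries (2 PBS, 2 rIL-17B at 200 ng/ml, 48 h) was sequenced by the Smart-seq2 method, priming on oligo-dT and amplifying the cDNA by PCR. The authors deposited raw counts per gene name, not normalized. The submitters' processing notes name Bowtie2 2.2.3, HISAT2 2.1.0, TopHat2 and HTSeq 0.6.0 and the build hg38, without saying which step used which tool, and the strand setting is not given in the sources used here. Names with a count of 0 are not listed, so a missing name was set to 0. Names repeated with the same count (83 to 98 a library) were used once, and 22 to 25 entries a library whose names had turned into numbers were left out. Counting floors cover counting error only, since PCR copies are not independent molecules.

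Counts were normalized by TMM (factors 0.97 to 1.07), filtered by filterByExpr and tested with edgeR 4.0.16 (quasi-likelihood F test, group only, R 4.3.3) on 16361 genes, and p-values were adjusted by Benjamini-Hochberg and read at 0.05. The SE is the log2 fold change divided by the square root of F. DESeq2 1.42.0, other normalizations and filters, and each library left out in turn were alternatives, and combinations of a left-out library with another scaling or tool were added after the data were seen. The fits were also run on simulated counts with less spread than these data and no library standing apart. That run checks the code and cannot show how the fits behave on these libraries. Coordinates and exon lengths came from GENCODE 29 on GRCh38, in which 97.84% of names were found once, and promoters from RefSeq on GRCh38.p14. Tables and figures were made with Python 3.11.15.

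The members and gene lists were chosen with earlier results of these data known. All members are given by role. Full values were given for 17 of them: in each role the smallest p and the highest level per length, and overall the 5 smallest p and the 3 largest and 3 smallest ratios of each rIL-17B library. In each neighbouring list the 2 genes with the smallest p were named. Replicate numbers are not stated to mark a shared batch.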

Additional observations from a re-analysis of the deposited data

How the results depend on the processing

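The call of 0 members past the threshold over the 4 libraries held with DESeq2, upper-quartile normalization, library totals, the low-count filter dropped or set to at least 10 counts per library, and all entries kept. With a single rIL-17B library it held only for replicate 2 with library totals or DESeq2, among the settings run. Leaving out each library in turn gave between 0 and 39 members past the threshold (14 without rIL-17B replicate 1), between 0 and 9489 genes (504 without rIL-17B replicate 1), between 0 and 1 member lower in both rIL-17B libraries, and member medians of the log2 fold change between 0.28 and 0.89. With added settings, chosen after seeing the data, and without rIL-17B replicate 1, upper-quartile normalization gave 516 genes and 11 members, and library totals and DESeq2 each gave 0 and 0. Without rIL-17B replicate 2, library totals gave 9731 genes and 39 members, and DESeq2 gave 5981 and 38. SPC25 reversed: its log2 fold change was between -0.021 (without rIL-17B replicate 1) and 0.64 (without rIL-17B replicate 2) with a library left out. The cause of these changes was not tested beyond the library left out.

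The members' median log2 ratio to PBS for rIL-17B replicate 1, 0.89, was 0.92 with upper-quartile normalization, 1.03 with library totals, 0.87 with 2 CPM added, and between 0.83 and 0.93 with either PBS library left out. Library totals moved the median of all genes by over 0.1, from -0.04 to 0.08, and relative to that median the members were at 0.93 and 0.94. For replicate 2 the median of 0.28 was 0.26 with upper-quartile normalization and between 0.25 and 0.34 with either PBS library left out.

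Deviations of same-numbered libraries from their group means had a correlation of 0.08 over 16361 genes. With 2 libraries a group both pairs give the same value by construction, so it cannot decide whether the numbers mark a pairing. The labels state no pairing, and the numbers were not taken as one. A fit with a replicate block called 0 genes and 0 members (173 and 10 at an unadjusted p under 0.05) and gave a member median of 0.59. The members had between 99 and 9177 counts a library. The limits are 2 libraries a group, a rIL-17B library that stands apart, and calls in the other one that depend on the normalization and tool.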
